A study of Irpex lacteus with 14 samples.

Results

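The comparison described here sets growth of the white-rot fungus Irpex lacteus on ground aspen, a hardwood, against growth on maltose, the disaccharide released from starch. It covers the 967 genes, of 977 different gene IDs in the deposited table, whose normalized log2 read count was about 3.3 or more (10 on the linear scale, called the filter limit below) on at least 2 of the 5 substrates of the series. Each gene had 1 value on aspen and 1 on maltose, and each value stood for 3 libraries, so that 6 of the 14 libraries of the series lie behind the comparison. The other substrates were microcrystalline cellulose (Avicel) and wheat straw, with 3 libraries each, and pine, with 2.

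All cultures were of strain CCBAS Fr. 238 617/93 and were shaken for 3 days at 30 °C in 100 ml of a common mineral medium with diammonium tartrate, yeast extract and thiamin. Maltose was given at 20 g/l with no solid. Aspen, milled to 1 mm, was given at 15 g/l together with maltose at a level that the label garbles, while the other 3 solids, at the same load, came with 2.5 g/l of maltose. Straw and pine were ground to under 2 mm, so that particle size and perhaps free sugar differ between aspen and these plant materials along with the material itself. Wood was present only on the aspen side of this comparison, and the amount of free sugar may have differed as well. The effects of the 2 on a gene cannot be told apart. Mycelium and leftover wood were frozen together and RNA was taken from the mixture, so an amount of fungal RNA is not given by these values, only relative levels.

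White-rot fungi are known for breaking down all the main polymers of wood. They secrete cellulases, hemicellulases and copper-dependent oxidases that cut polysaccharides, and peroxidases and laccases that act on lignin, and many of these genes are known to be kept low while easily used sugar is plentiful. Hardwoods such as aspen carry xylan as their main hemicellulose and a lignin rich in syringyl units, whereas softwoods such as pine carry more mannan and a guaiacyl lignin. The table gives each gene a number and no name, so the genes below are described by their levels and not by what they encode. Values per library were not analysed here, so no spread between replicates, interval or p-value accompanies a difference, and the depth of the libraries is unknown. "Higher" and "lower" mean a difference of at least 1 between the deposited log2 values, which is 2-fold.

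Most genes kept a similar level on both substrates. The difference, aspen minus maltose, was under 1 in size for 702 genes (72.6%) and under 0.5 for 469 (48.5%), with the 25th and 75th percentiles at -0.36 and 0.80 and a median of 0.10. The levels had r = 0.87 across the 967 genes, which are not independent replicates. Higher on aspen were 203 genes, or 21.0% of those compared, and lower were 62, or 6.41%, so that 27.4% differed in either direction. At a difference of 2 (4-fold) these counts were 89 (9.2%) and 11 (1.14%). On the deposited scale the tails were of unequal length. On it 25 genes were higher by 4 or more and 12 by 5 or more, whereas no gene was lower by 4 or more and 3 were lower by 3 or more. Close to the limit itself, 35 genes were past 1 by less than 0.2 and 37 short of it by 0.2 or less. On the lower side, 13 genes were past -1 by less than 0.2 and 37 short of it by 0.2 or less. Both counts therefore depend on where the limit is set, and a looser limit would change the 62 lower genes more in proportion than the 203 higher ones.

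The balance of higher and lower genes also depended on how the columns were put on a common scale. The median gene lay at 8.74 on aspen and 8.22 on maltose, 0.52 apart. Bringing the columns to a common median gave 129 higher and 191 lower genes, and quantile normalization gave 153 and 158. Setting the median difference to 0 gave 185 and 77. Whether higher or lower genes predominate at 2-fold therefore depends on the scaling. Centring moves every difference by the same amount. By construction, the 129 genes are therefore among the 203, and all 62 lower genes remain lower. Quantile normalization, which has no such constraint, kept 152 of the 203 and 61 of the 62. At 4-fold, higher genes outnumbered lower ones under each of these scalings, with 58 against 27 after centring, 71 against 24 with quantile normalization and 80 against 13 with the median difference at 0. The absence of genes lower by 4 or more did not hold under 2 of them. Genes 1515189 and 1444239 were at -4.13 and -4.06 after centring, and at -4.03 and -4.08 with quantile normalization.

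**Figure D1:**
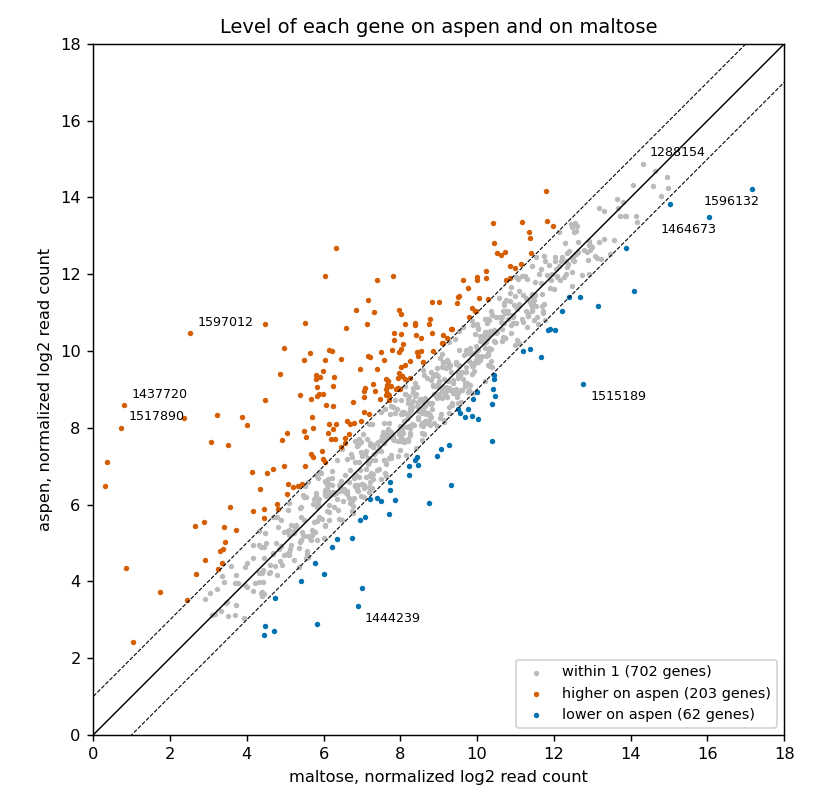
Level of each of the 967 genes on maltose (x axis) and on aspen (y axis), both as normalized log2 read counts with 1 value per gene and substrate. The solid line marks equal levels and the dashed lines a difference of 1; the 203 higher genes reach far above the upper line at low maltose levels, and the 62 lower genes stay within 3.60 of equality.

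The genes with the largest positive differences lay at 6.31 or less on maltose and at widely different levels on aspen. The 14 largest differences belonged to genes at 6.48 to 12.69 on aspen, where the median gene was at 8.74, and 8 of them had a maltose value under the filter limit, where the size of a log2 difference depends on any value added before the logarithm. Gene 1597012 led with 10.47 on aspen and 2.52 on maltose, a difference of 7.95, or 6.70 when 8 was added to the linear values. It was also high on cellulose (9.24), straw (10.97) and pine (11.05).

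Below it came 3 genes that were close to the floor on maltose. Gene 1437720 was at 0.80 on maltose and 8.58 on aspen, with 10.09 on cellulose, 10.13 on straw and 6.53 on pine. Gene 1517890 was at 0.72 on maltose and 8.01 on aspen, with 6.43 on cellulose, 10.18 on straw and 9.47 on pine. Gene 1486573 was at 0.37 on maltose and 7.11 on aspen, with 10.02 on cellulose, 12.58 on straw and 7.45 on pine. All 3 were highest on straw, and they differed in their order on the other solids. With 8 added, their differences from maltose were 5.33, 4.78 and 3.97 in that order.

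Genes with a firm maltose value are less exposed to that limit. Gene 1582264 was at 6.31 on maltose and 12.69 on aspen, an 83.4-fold difference that moved only from 6.38 to 6.25 with 8 added. Gene 1478032 was at 6.04 and 11.96 on the same substrates, 60.4-fold apart, and gene 1595598 at 5.51 and 10.73, 37.2-fold apart. All 3 were at 11.84 or more on cellulose and at 12.75 or more on straw. Gene 1578898 was at 4.46 on maltose and 10.71 on aspen, and gene 1162429 at 4.96 and 10.08. These 2 were at 12.72 and 12.28 on straw and stood lower on cellulose, at 10.22 and 9.32.

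Across the 14 genes, maltose held the lowest of the 5 values every time. The highest value lay on straw for 8, on cellulose for 3, on aspen for 2 and on pine for 1. In 13 of the 14, cellulose was also at least 3 above maltose. The exception was gene 1583303, which was at 7.63 on aspen and at 3.07 and 3.19 on maltose and cellulose. It was at 7.17 on both straw and pine, so its aspen value was only 0.46 above the next. The other gene with its highest value on aspen was 165811, at 9.41 on aspen and 4.88 on maltose, with 8.02 on cellulose, 7.80 on pine and 5.97 on straw. The remaining members of the 14 followed the more common profile. Gene 1598955 was at 6.48 on aspen and 0.30 on maltose, gene 521048 at 8.24 and 2.36, and gene 1739549 at 8.34 and 3.22, and all 3 were higher on cellulose and on straw than on aspen. The 14 genes were picked by their aspen and maltose values, so the place of maltose in these counts is partly set by that choice. The 8 genes under the filter limit on maltose were also kept only for their levels on other substrates. The counts therefore describe these 14 profiles and nothing more is read from them.

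**Figure D2:**
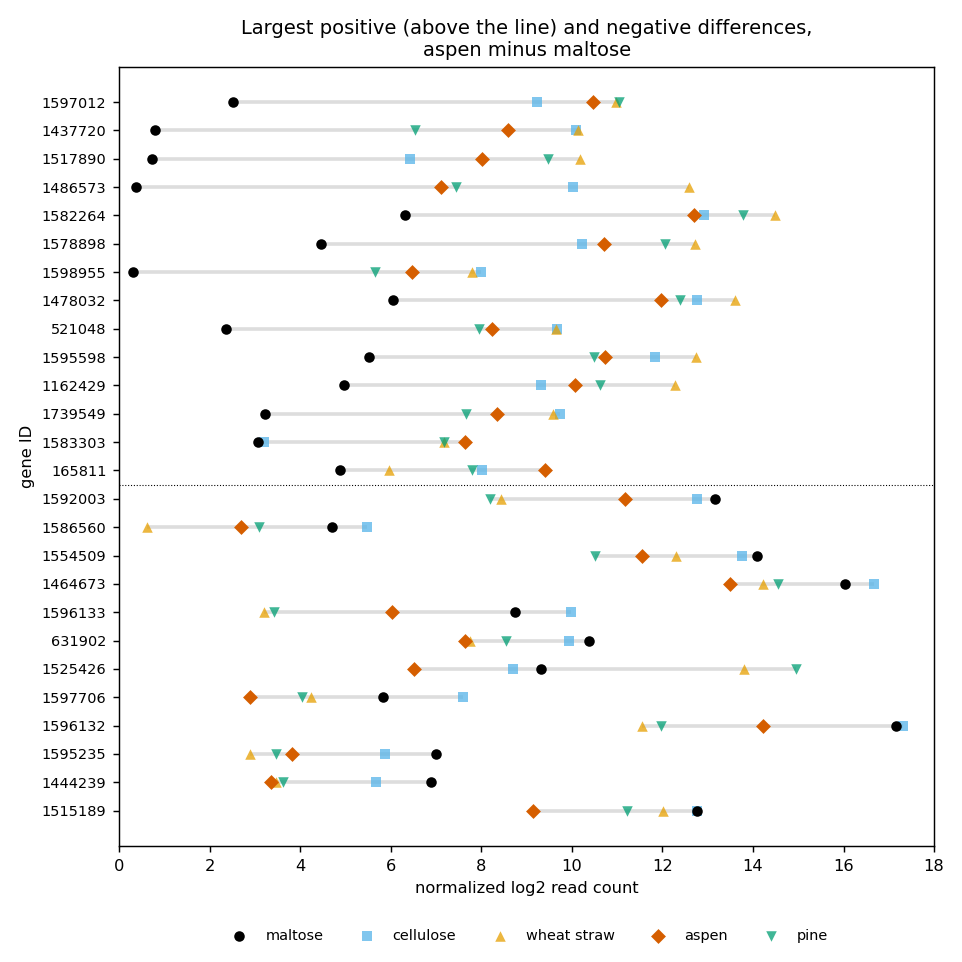
Normalized log2 read counts (x axis) on the 5 substrates for the 14 genes most above and the 12 most below their maltose value on aspen (1 value per gene and substrate, y axis by gene ID). Maltose holds the lowest value of all 14 genes above the dotted line, and aspen holds the highest value of 2 of them; below the line aspen holds the lowest value of 6 of the 12 genes.

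The genes with the largest negative differences spanned a wide range of abundance, from 4.71 to 17.16 on maltose. Of the 12 lowest differences, 5 belonged to genes at 12 or more on maltose. Gene 1515189 had the largest, at 12.76 on maltose and 9.15 on aspen, 12.2-fold lower. It stood at 12.76 on cellulose, 12.01 on straw and 11.22 on pine, so aspen was 2.07 below the next lowest substrate. Genes 1444239 and 1595235 were low on every plant material: the former was at 6.89 on maltose and at 3.35, 3.46 and 3.62 on aspen, straw and pine, and the latter at 6.99 on maltose and at 3.83, 2.88 and 3.46. With 8 added, the differences from maltose of these 2 genes were -2.80 and -2.61.

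For 10 of the 12 genes the cellulose value was above the maltose value or within 1 below it. Gene 631902 was at 10.39 on maltose and 9.94 on cellulose, and at 7.65 on aspen, 7.75 on straw and 8.54 on pine. Gene 1554509 was at 14.09 and 13.77 on the same 2 substrates, and at 11.56 on aspen, 12.29 on straw and 10.51 on pine. Gene 1592003 was at 13.16 and 12.77, and at 11.18 on aspen, 8.42 on straw and 8.19 on pine. The lower level was thus shared by the 3 plant materials in these genes, with aspen lowest in the first and highest in the last. Gene 1597706 had its highest value on cellulose (7.59) and its lowest on aspen (2.89), with 5.82 on maltose. Gene 1586560 was at 4.71 on maltose and 2.70 on aspen, and its difference shrank from -2.02 to -1.24 with 8 added.

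Among the 967 genes, abundance was spread over more genes on aspen than on maltose. How the genes of the deposited table were chosen is not given, so shares and ranks refer to these genes and not to all transcripts. The values are read counts, and no correction for gene length was made here. When the linear values of the 967 genes were summed, the top 10 genes took 28.4% of the sum on maltose and 14.9% on aspen. It took the 40 most abundant genes to reach 50% of that sum on maltose and 72 on aspen, against 43 on cellulose, 60 on straw and 46 on pine. The values on aspen also had the narrowest limits, from 2.43 to 14.88, where maltose ran from 0.30 to 17.16. Much of the contrast in concentration came from the 2 leading maltose genes: without them the top 10 took 19.3% on maltose and 14.9% on aspen. With quantile normalization, which gives every column the same values, this contrast cannot be seen.

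The leading maltose gene, 1596132, took 9.76% of the sum on maltose and 1.35% on aspen, at log2 values of 17.16 and 14.22. It was still the seventh most abundant gene on aspen, where it lay between the cellulose level (17.31) and the levels on pine (11.96) and straw (11.55). Gene 1464673, second on maltose with 4.48% of the sum (16.04), held 0.814% on aspen (13.49), its lowest value of the 5. Gene 1554509 moved from rank 12 on maltose to rank 122 on aspen. Gene 1592555, chosen after its values were seen, was at rank 3 on maltose (15.02) and rank 12 on aspen (13.82), 1.20 lower.

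In the other direction, the largest gain in share belonged to gene 1437735. It was at rank 90 on maltose (11.79, 0.235% of the sum) and at rank 8 on aspen (14.16, 1.29%), a difference of 2.37. Its level was higher still on pine (15.45) and lower on cellulose (9.66) and straw (9.22), so that both woods stood above maltose and the other 2 solids below it. Gene 370663 moved from rank 203 on maltose (10.42) to rank 24 on aspen (13.34), and it was at 13.97 on straw, 13.91 on pine and 9.92 on cellulose. Gene 1005965, chosen after its values were seen, moved from rank 139 (11.16) to rank 23 (13.36) and was at 15.50 on straw, 15.21 on pine and 11.15 on cellulose. These 2 genes had cellulose values at or under the maltose level and aspen values under those of straw and pine.

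The top of the aspen list was otherwise made up of genes that were abundant on maltose as well. Of the 10 most abundant genes, 7 were on both lists, and of the 100 most abundant, 78 were. Gene 1288154 led on aspen at 14.88 and was ninth on maltose at 14.31. Gene 1287858 was at 14.70 on aspen and 14.63 on maltose, gene 1461120 at 14.32 and 14.06, and gene 1288940 at 13.95 and 13.65. Genes 1283249, 1580582, 1586977 and 1662115 were lower on aspen by less than 1, at 14.53, 14.31, 14.26 and 14.04 against 14.95, 14.59, 14.97 and 14.78 on maltose. The signs of such small differences are not firm: centring turned those of genes 1287858, 1461120 and 1288940 to -0.45, -0.26 and -0.22, and quantile normalization turned those of genes 1283249 and 1580582 to 0.29 and 0.19. Centring also took genes 1586977 and 1662115 past the limit, to -1.24 and -1.27, and quantile normalization took gene 1288154 to 1.64.

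As a group, the 203 higher genes made up 5.15% of the summed linear values on maltose and 21.0% on aspen. The 62 lower genes made up 23.6% and 5.69%. These shares describe genes picked by the same 2 columns and are no separate evidence. Of the higher genes, 73 were at 10 or more on aspen and 22 on maltose. Of the lower genes, 24 were at 10 or more on maltose and 13 on aspen.

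How often a gene differed went with its level on maltose. Of the 446 genes under 8 on maltose, 139 (31.2%) were higher on aspen and 22 (4.93%) lower, whereas of the 521 genes at 8 or more, 64 (12.3%) were higher and 40 (7.68%) lower. At 12 or more, none of 80 genes was higher and 11 (13.8%) were lower, and the largest positive difference there was 0.96. Quantile normalization made 1 of these 80 genes higher, and centring made none. Of the 47 genes under 4 on maltose, 26 (55.3%) were higher and none was lower. The filter shaped that last count: 23 of the 47 lay under the filter limit on maltose and were kept only for their levels on other substrates, and so low a value leaves little room below it. Gene 1287336 was at 8.02 on maltose and 10.95 on aspen, a difference of 2.94 that no gene with a higher maltose value exceeded.

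A gene sorted by its maltose value is also sorted by any error in that value, which enters the difference with the opposite sign. Sorting by the mean over the 5 substrates, which weighs maltose and aspen alike, gave flatter shares. Between 4 and 14 on that scale, 15.3% to 25.9% of the genes in each bin of width 2 were higher and 3.57% to 8.76% lower. The 14 genes at 14 or more again had no higher gene and 3 lower ones. Quantile normalization made 1 of these 14 genes higher. By mean level, 13 of the 84 genes at 12 to 14 (15.5%) were higher, among them gene 1582264, so the absence of higher genes from 12 upward is tied to sorting by maltose. The steep rise of higher genes toward low levels was also seen only by maltose level.

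**Figure D3:**
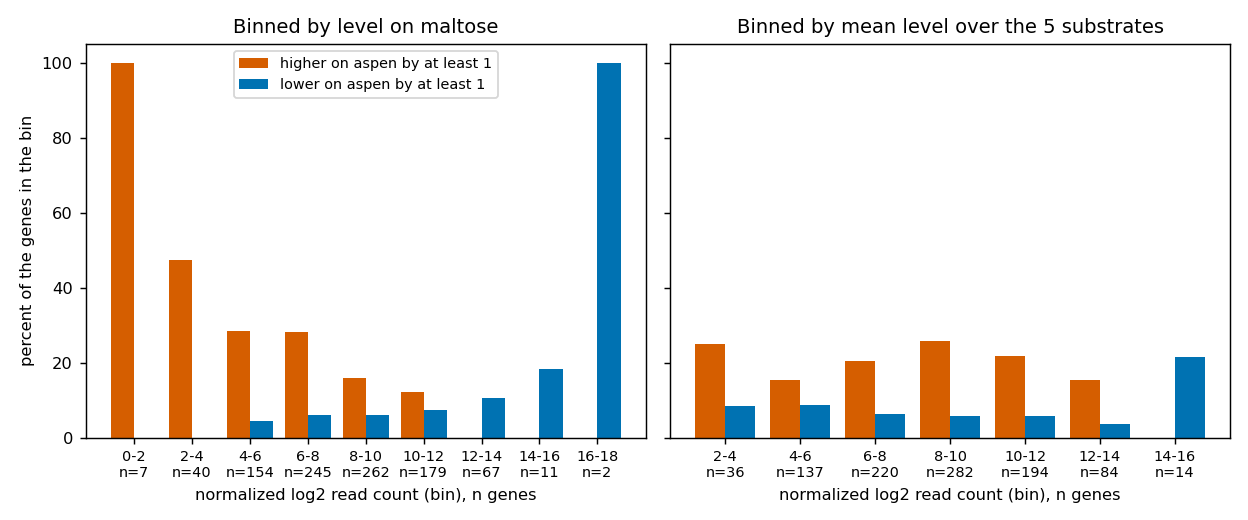
Percent of genes higher (orange) or lower (blue) on aspen than on maltose by at least 1, in bins of width 2 of the normalized log2 read count on maltose (left) or of the mean over the 5 substrates (right), with the number of genes under each bin. By maltose level the share of higher genes runs from 100% of 7 genes to 0 of 80 genes at 12 or more; by mean level it stays between 15.3% and 25.9% from 4 to 14.

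The 7 genes under 2 on maltose, all kept by the filter for their levels elsewhere and all higher on aspen, are given as values only. Besides the 4 genes described above (1598955, 1486573, 1517890 and 1437720), genes 1292984, 1461631 and 1595434, chosen after their values were seen, were at 0.85, 1.03 and 1.73 on maltose and at 4.34, 2.43 and 3.71 on aspen. With 8 added, the differences of genes 1461631 and 1595434 were 0.41 and 0.90, under the limit of 1. Of the 23 kept genes under the filter limit on maltose, 18 counted as higher, and of the 11 under it on aspen, 4 counted as lower. Both counts are partly set by the filter, which such genes passed through other substrates.

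At the edge of the filter, the kept gene with the lowest qualifying value was 1681176, at 4.44 on maltose and 2.60 on aspen, with a second highest value of 3.35. The removed gene nearest the limit was 1590815, at 3.44 on aspen and 3.21 on maltose, with a second highest value of 3.30. The 10 removed genes had no value above 4.28 on any substrate, and their differences, aspen minus maltose, ran from -1.71 to 1.26. Both genes were chosen by their place at the limit.

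The 203 higher genes were next set beside their levels on the other solids. Their median level was 7.05 on maltose, 8.21 on cellulose, 9.56 on straw, 9.29 on pine and 9.28 on aspen. Set against the same maltose value, the median difference was 0.53 on cellulose, 2.06 on straw, 2.10 on pine and 1.86 on aspen, where the medians over all 967 genes were 0.03, 0.09, 0.43 and 0.10. These comparisons share the maltose column, which also chose the genes, and are given side by side only. Straw held the highest of the 5 values for 77 of the 203 genes, aspen for 59, pine for 50 and cellulose for 17. Over all genes, straw held the highest value of 210, aspen of 120, pine of 326, cellulose of 133 and maltose of 178. The choice of the higher genes favours aspen and keeps maltose from being highest, so nothing is read from these counts either. Compared with cellulose, aspen was at least 1 higher for 109 of the 203 genes, within 1 for 72 and at least 1 lower for 22, where 14.7% of all 967 genes were higher and 8.79% lower. The aspen values that chose the genes enter this comparison too, so nothing is read from the gap.

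The 62 lower genes had a median level of 9.29 on maltose, 8.86 on cellulose, 8.20 on pine, 7.55 on straw and 7.50 on aspen. Cellulose stood close to maltose in these genes, with a median difference of -0.35, against -1.86 on straw, -1.37 on pine and -1.40 on aspen. Straw held the lowest of the 5 values for 31, aspen for 21, pine for 9 and cellulose for 1. Over all genes these counts were 291, 151, 92 and 150, and maltose held the lowest value of 283. The choice of the lower genes favours aspen and keeps maltose from being lowest, so nothing is read from these counts. None of the 62 genes was at least 1 higher on aspen than on cellulose, 26 were within 1, and 36 were at least 1 lower, against the same 14.7% and 8.79% of all genes and with the same shared aspen values.

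Pine against cellulose uses neither the aspen nor the maltose values, so it offers a look at the same genes with no column in common. Pine is a wood and Avicel a purified polysaccharide, and the labels give both media the same loads of solid and of maltose. Of the 203 genes higher on aspen than on maltose, 103 (50.7%) were at least 1 higher on pine than on cellulose, where 24.7% of all 967 genes were. The 103 genes made up 43.1% of the genes higher on pine than on cellulose. In the opposite direction 30 of the 203 (14.8%) were lower on pine, against 11.7% of all genes. Of the 62 genes lower on aspen than on maltose, 30 (48.4%) were lower on pine than on cellulose and 5 (8.06%) higher, and the 30 made up 26.5% of the lower genes of that comparison. Among the 702 genes with no 2-fold difference, 18.7% were higher and 7.55% lower on pine.

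Straw against cellulose gave like counts, with 109 of the 203 genes (53.7%) higher and 46 of the 62 (74.2%) lower, where 20.4% and 18.6% of all genes were. Those lists made up 55.3% of the higher and 25.6% of the lower genes of that comparison. Across the 967 genes, the aspen minus maltose differences had r = 0.27 (Spearman's rho 0.36) with pine minus cellulose and r = 0.46 (rho 0.45) with straw minus cellulose. All 5 columns come from 1 normalization of 1 table, genes are not independent replicates, and no test was made. The shares also moved with the scaling. After centring, 43.4% of the genes then higher on aspen were higher on pine than on cellulose, against 17.6% of all genes. Of the genes then lower on aspen, 36.1% were lower on pine than on cellulose, against 18.4% of all genes.

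**Figure D4:**
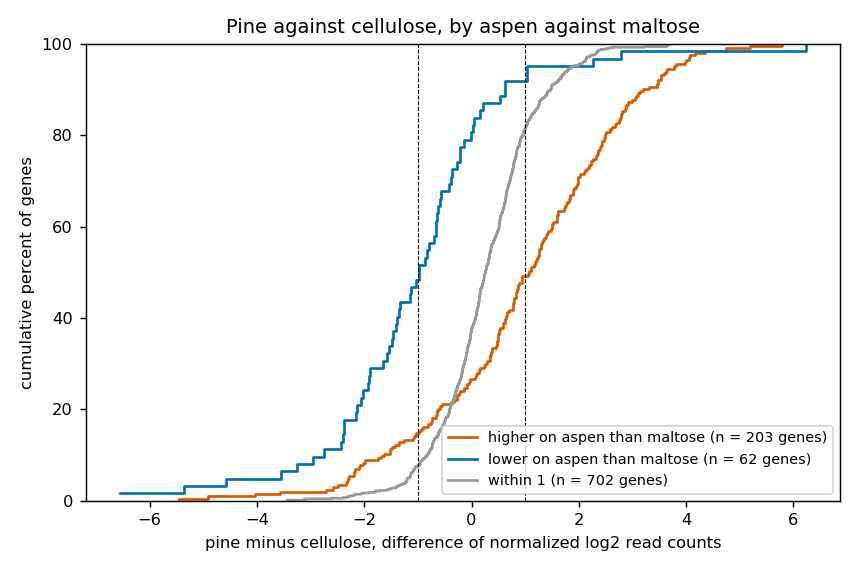
Cumulative percent of genes (y axis) by the difference pine minus cellulose of the normalized log2 read counts (x axis), for the 203 genes higher on aspen than on maltose, the 62 lower genes and the 702 others; dashed lines mark -1 and 1. The curve of the higher genes lies mostly to the right, with 50.7% of them past 1, and that of the lower genes to the left, with 48.4% of them past -1.

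A short list of genes stood apart on aspen from the other solids as well. In 13 genes aspen was at least 1 above each of the other 4 substrates, maltose included. Their aspen levels ran from 5.55 to 10.89, so none was among the most abundant genes, and their median difference from maltose was 2.64. The next value below aspen lay on pine for 6 of them, on cellulose for 4, on maltose for 2 and on straw for 1. The margin stayed at 1 or more for 8 of the 13 genes after centring, for 11 with quantile normalization and for 12 with 8 added. With the median difference from maltose set to 0, 18 genes in all had such a margin. Gene 1443511, chosen as the next in order, had a margin of 0.99.

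Gene 1292559 was at 9.49 on aspen and between 5.98 (maltose) and 7.45 (pine) elsewhere, a margin of 2.03 that grew to 2.18 after centring. Gene 1682917 was at 8.88 on aspen, 6.90 on pine, 5.97 on maltose, 4.98 on cellulose and 3.75 on straw. Gene 1550035 was at 7.90 on aspen and no higher than 5.92 on any other substrate. These 3 genes had margins close to 2, or 4-fold, over the next substrate. Gene 1583547 was at 9.84 on aspen and 8.10 on pine, 7.20 on maltose, 6.97 on straw and 5.66 on cellulose. Gene 1291806 was at 9.54 on aspen, with its other values from 6.24 on straw to 7.76 on pine. Both had their lowest value on a solid and not on maltose.

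Gene 886641 had the widest margin, at 5.55 on aspen, 3.41 on cellulose, 2.88 on maltose, 1.37 on straw and 1.23 on pine. All its other values were near or below the filter limit, and with 8 added the margin shrank from 2.14 to 1.56. Gene 565264, chosen after its values were seen, was at 8.88 on aspen and 7.68 on cellulose, but at 5.87 on maltose, 4.98 on pine and 4.75 on straw. Gene 1591871, chosen in the same way, was at 9.79 on aspen, 8.48 on pine and 8.44 on straw against 6.45 on maltose and 5.50 on cellulose. The 13 genes thus shared their peak on aspen and little else: in some the second substrate was the other wood, and in others it was the purified cellulose.

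In 6 genes aspen was at least 1 below each other substrate, and this held for all 6 after centring and with quantile normalization. With the median difference from maltose set to 0, only 4 genes were lowest on aspen by that margin. Gene 1525426 stood out by level, at 6.50 on aspen against 14.95 on pine, 13.81 on straw, 9.32 on maltose and 8.71 on cellulose. Gene 1086632 had a like order, at 8.32 on aspen against 12.36 on pine, 12.15 on straw, 9.87 on maltose and 9.56 on cellulose. Gene 1537763 was at 11.40 on aspen, 12.40 on maltose, 12.47 on cellulose, 13.50 on pine and 14.92 on straw. In these 3 genes straw and pine lay above maltose and aspen below it, by at least 1 each. Gene 1716602 was at 8.48 on aspen and between 9.68 (pine) and 11.02 (cellulose) elsewhere. Genes 1515189 and 1597706, described above, complete the list, and with 8 added the margin of gene 1597706 was 0.66 and that of gene 1537763 just under 1.

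In 10 genes aspen was at least 1 above maltose and straw at least 1 below it, but pine was not. The share of all genes with straw at least 1 below maltose was not counted, so nothing is read from this number. Genes 1594123 and 249560 of this list were under the filter limit on straw, at 1.19 and 2.19. This list overlaps the 13 genes highest on aspen: genes 1291806, 1682917, 565264 and 1589175 are on both. Gene 1437735, described above, was among them. Gene 784253, chosen after its values were seen, was at 12.10 on aspen and 10.22 on maltose, with 12.02 on cellulose, 11.12 on pine and 9.08 on straw. Gene 1595685, chosen in the same way, was at 10.20 on aspen and 9.10 on maltose, with 11.58 on cellulose, 9.09 on pine and 7.04 on straw. Its aspen difference of 1.10 is close to the limit, and centring, which lowers every such difference by 0.52, takes it below 1. In both genes straw was the lowest of the 5 substrates. Aspen was level with cellulose in the first and more than 1 below it in the second.

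**Figure D5:**
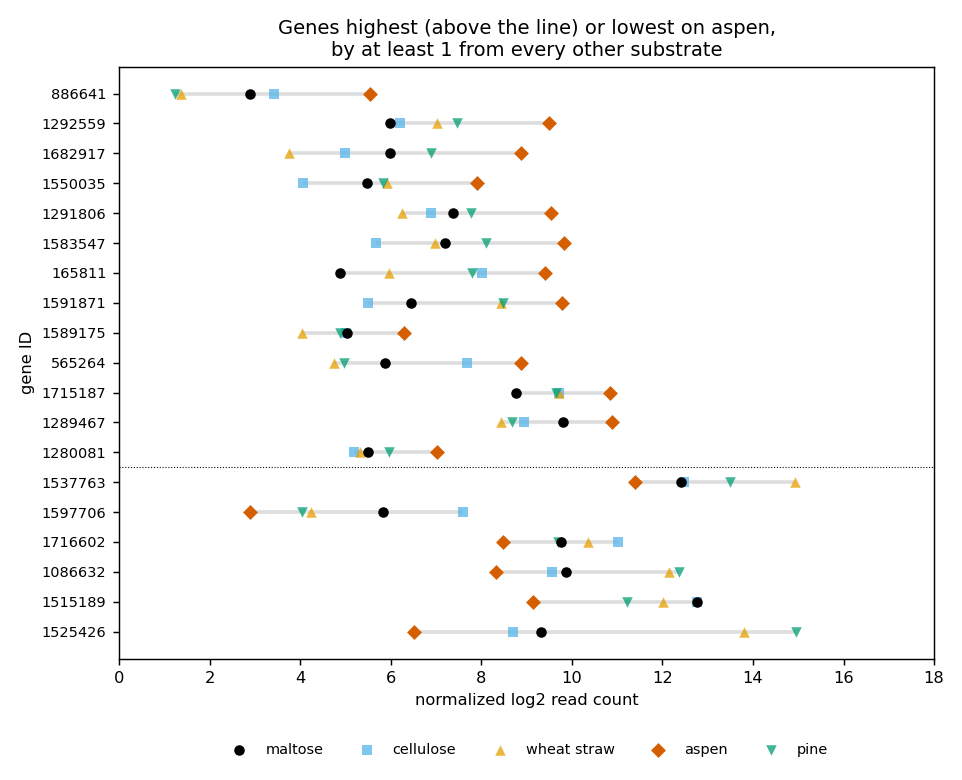
Normalized log2 read counts (x axis) on the 5 substrates for the 13 genes highest and the 6 genes lowest on aspen by at least 1 from every other substrate (y axis by gene ID, ordered by the margin). Aspen levels of the upper group lie between 5.55 and 10.89, and gene 1525426 at the bottom spans the widest range, from 6.50 on aspen to 14.95 on pine.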

How the data were processed

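Per the file headers, the values the authors deposited are log2 normalized read counts, with 1 value for each gene on each substrate. Per the submitters' processing notes, the tools were TopHat2, HTSeq and DESeq (1.5), without their roles. Not given in the sources used here: the genome build, the size factors, a value added before taking logs, how libraries were combined, and how the table's genes were chosen. Of 1000 rows, 23 repeated a gene with identical values and were dropped.

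From these values, differences, counts at 1 and 2, ranks and shares of the summed linear values (2 to the power of the log2 value) were computed in Python 3.11.15 with pandas 2.3.3, NumPy 2.4.6 and SciPy 1.17.1. With 1 value per substrate no test over samples can be made, so a size rule replaced it. Alternatives were no filter, a stricter filter, a filter on maltose and aspen, 8 added to the linear values, quantile normalization, centring on the median, and setting the median difference from maltose to 0. Named genes were the 14 largest positive and 12 largest negative differences, the 10 most abundant on aspen, the 6 most above and 6 most below every other substrate, and the leading gene of each bin of maltose level. Some of these are described only by counts. The comparison, lists and rules were chosen with earlier results of these data known. Counting functions were tested on simulated data.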

Additional observations from a re-analysis of the deposited data

Results flagged for a closer look

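In 5 genes the difference from maltose had opposite signs on aspen and on both other plant materials, each by at least 1. The difference between substrates was not tested, since each substrate has 1 value per gene. In 3 of them aspen was the lower one. Gene 1525426 differed from maltose by -2.82 on aspen, 4.49 on straw and 5.63 on pine. For gene 1086632 these differences were -1.56, 2.27 and 2.48. For gene 1537763 they were -1.001, 2.52 and 1.10, with the aspen value at the limit. In the other 2 genes aspen was the higher one. Gene 1289467 was at 10.89 on aspen and 9.80 on maltose, a difference of 1.10, with -1.36 on straw and -1.11 on pine. After centring its aspen difference was 0.57. Gene 886641 differed by 2.67 on aspen, -1.51 on straw and -1.65 on pine, where its levels were 1.37 and 1.23.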

How the results depend on the processing

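No paired analysis was possible because each substrate has 1 deposited value and no values per library. For the same reason, leaving out a library and a test on values per library were not run. The filters and the added 8 kept each headline measure within 1.5 times its reported value. These measures were the counts at 2-fold and 4-fold, the median difference and the counts of genes highest or lowest on aspen. The shares on pine against cellulose and of the most abundant genes were also among them. Counts at larger differences were not: with 8 added, the difference of gene 1595598 fell from 5.22 to 4.99. The scaling of the columns mattered more, by its construction. With quantile normalization, 158 genes were lower (24 at 4-fold) and the median difference was -0.26. With centring, 129 genes were higher and 191 lower (58 and 27 at 4-fold), the median difference was -0.42, and 8 genes were highest on aspen. With the median difference from maltose set to 0, that median is 0 and the counts were 185 and 77. Of the 203 higher genes, 128 were higher under each of these 3 scalings and with 8 added, and so were 57 of the 62 lower genes in their direction. Of 38 named genes past 2-fold, 37 were past it in the same direction in every alternative that kept them. Gene 1537763 came to -0.999 with 8 added, just under the limit. Many of these genes were named for their large differences, and a filter cannot change the difference of a gene it keeps. That count was therefore largely set in advance. Signs turned for 5 abundant genes with small differences: 1287858 (-0.45 with centring, -0.033 with the median difference at 0), 1461120 (-0.26) and 1288940 (-0.22) with centring, and 1283249 (0.29) and 1580582 (0.19) with quantile normalization.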

Other observations

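Gene IDs that differ by 1 formed 16 pairs among the 967 genes. In 3 pairs neither gene was past 2-fold on aspen against maltose, in 11 exactly 1 was, and in 2 both were. Of all genes taken singly 27.4% were, a share that cannot be set directly against counts of pairs. With 2 such pairs, nothing is read from their directions. No place in the genome is inferred from the numbers. Genes 1596132 and 1596133 were lower by 2.94 and 2.71 on the log2 scale, at 14.22 and 6.04 on aspen. The levels of the second were 8.74 on maltose, 9.98 on cellulose, 3.21 on straw and 3.43 on pine, so in both genes aspen lay below maltose and cellulose and above straw and pine. Genes 1597163 and 1597164 were higher by 1.10 and 1.01, at 4.47 and 8.72 on aspen.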
